A study of Mus musculus with 3 samples.

Results

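The cells described here are neural progenitors rich in transcripts of Hist1h1b, the gene of a linker histone that is made while DNA is copied. They were chosen by 2 measured values. A cell had to hold at least 8 UMIs (unique transcript molecules counted) of Hist1h1b, and fewer than 4 of the 8 mitotic genes Cdc20, Ccnb1, Cenpa, Cenpe, Aspm, Plk1, Ube2c and Hmmr could be detected in it. Of 17920 cells, 1042 met both conditions, and they are called histone-rich cells below. The remaining cells were divided into 7168 mitotic cells, with at least 4 of the 8 mitotic genes, and 9710 other cells, with fewer than 4 of these genes and fewer than 8 Hist1h1b UMIs.

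Replicating a genome needs as much new histone protein as there is new DNA to wrap, so a family of clustered, intronless histone genes is switched on at the start of S phase and silenced when replication ends. Most of their messages end in a short RNA hairpin instead of a poly(A) tail, and the hairpin-binding protein Slbp carries them through processing and translation. Cells preparing for or carrying out S phase also express the MCM helicase, which is loaded on origins in G1, together with polymerases, sliding clamp factors and enzymes that make deoxynucleotides. The mitotic genes are switched on later, in G2.

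The progenitors came from brains of postnatal day 1 mice, were grown as neurospheres with 20 ng/mL human epidermal growth factor, and were plated at 50000 cells for 16 h. The control group is labelled only as a control, the bulk electroporation group was pulsed in a Nucleofector, and the localized electroporation group received 400 pulses of 20 V on the device it grew on. Cells of all 3 groups were collected 4 h after treatment, with 10000 cells loaded per group and transcript 3′ ends sequenced. Dishes of polystyrene and the localized devices are both named as culture surfaces, but on which of them the control cells lay is not stated, and neither strain nor number of animals nor cargo is given in the sources used here. Growth factor and neurosphere culture were common to all groups, so the control is itself a cultured, growth-stimulated population. Each group was 1 library. No difference between groups has a replicate check, no test was possible, and every interval below is at 95% and covers counting error only.

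The libraries held 6091 control, 5531 bulk and 6298 localized cells, with median depths of 9542, 11644 and 10980.5 UMIs. Between 6 and 9 cell barcodes were shared by any pair of libraries. The histone-rich cells carried progenitor transcripts in all libraries. Summed levels of 14 neural stem or progenitor markers were 7629, 8629 and 9957 CPM (counts of the summed UMIs of a group of cells, scaled to an equal total) in control, bulk and localized histone-rich cells, and 8180, 9603 and 11659 CPM in other cells. Among them, Sox2 had 316, 345 and 326 CPM and Nes, an intermediate filament gene of progenitors, had 343, 430 and 312 CPM in histone-rich cells. Microglial, erythroid and mural or fibroblast markers summed to under 1 CPM in each library. The 10 oligodendrocyte precursor markers summed to 631 to 868 CPM, and 4 of them reached 20 CPM in each library. Olig2, which progenitors also express, had 178, 211 and 223 CPM, so most of each sum came from other members. Pdgfra, a defining precursor gene, lay at 6.74, 7.74 and 7.92 CPM. The 11 astrocyte markers summed to 445, 389 and 641 CPM, led by Aldoc, Aldh1l1 and Apoe, while Gfap lay at 0.321, 0.595 and 3.17 CPM and Gjb6 had no UMI. The 9 oligodendrocyte markers summed to 45.9, 44 and 91.7 CPM, mostly from Cnp, with Mbp at 0.963, 1.19 and 1.76 CPM. The 10 neuron markers summed to 249, 237 and 224 CPM, of which Map2, a microtubule gene, alone had 220, 208 and 205 CPM, while Dcx was between 0.528 and 2.08 CPM. The defining markers Gfap, Mbp and Dcx were thus near 0, while single members of these lists were not.

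Histone-rich cells made up 4.83% of control cells (294 cells, exact Clopper-Pearson interval 4.30 to 5.40%). They were 5.37% of bulk cells (297 cells, 4.79 to 6.0%) and 7.16% of localized cells (451 cells, 6.54 to 7.83%). The localized share lay above both others beyond counting error, and the control and bulk intervals overlapped. The order depended on depth and on how the rule was applied. Among cells of 8000 to 14000 UMIs, a window chosen after the values were seen, the shares were 6.86% (6.0 to 7.82%) for control, 7.26% (6.26 to 8.37%) for bulk and 10.0% (9.0 to 11.1%) for localized, and localized was again clear of both others. When each cell was thinned to 6000 UMIs, shallower cells were left out and the minimum was lowered to 5 Hist1h1b UMIs, control had 9.19% (8.41 to 10.0%), bulk had 12.9% (12 to 13.9%) and localized had 11.9% (11.1 to 12.8%). The control share was then the lowest, and the intervals of both electroporated libraries overlapped. With the same thinning and minimum inside the window, the shares were 10.4% (9.38 to 11.6%), 13% (11.7 to 14.4%) and 13.1% (11.9 to 14.3%). Thinning left out 1053 control, 608 bulk and 493 localized cells. The limit of fewer than 4 mitotic genes was kept, although thinning lowers how many are detected. Among the same bulk cells, those classed as mitotic fell from 2584 to 1880 and the histone-rich ones rose from 283 to 635. Mitotic cells fell from 2246 to 1712 in control and from 2021 to 1450 in localized. The thinned shares thus describe a wider population that takes in cells classed as mitotic at full depth.

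Most cells with much Hist1h1b were not in the selected population. At least 8 Hist1h1b UMIs were found in 1046 control cells, 1632 bulk cells and 1530 localized cells, which is 17.2%, 29.5% and 24.3% of all cells. The part of them with fewer than 4 mitotic genes was 28.1% (25.4 to 30.9%) for control, 18.2% (16.4 to 20.2%) for bulk and 29.5% (27.2 to 31.8%) for localized cells. The bulk library thus had the most Hist1h1b-high cells and the smallest part of them with fewer than 4 mitotic genes. Its mitotic cells were deep, with a median of 14538 UMIs against 11031 in its histone-rich cells, and a deeper cell reaches 8 Hist1h1b UMIs more easily but stays under 4 mitotic genes less easily, so depth and cell-cycle position cannot be told apart in these shares.

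**Figure D1:**
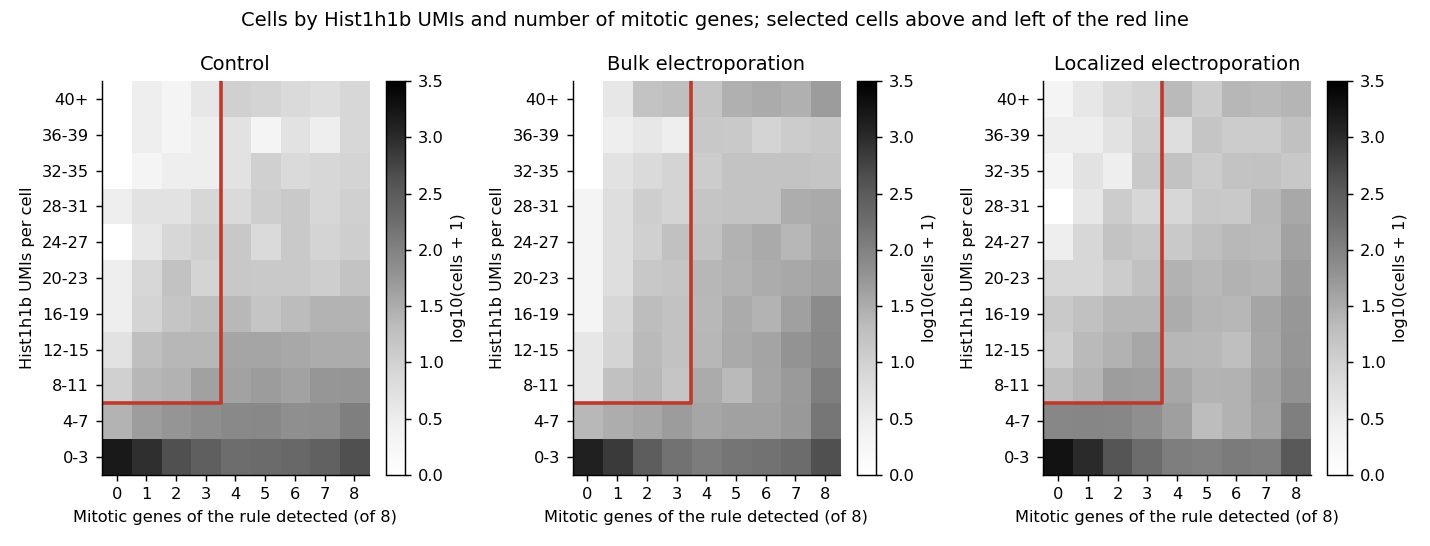
Number of cells (grey scale, log10 of cells + 1) by Hist1h1b UMIs per cell (vertical axis, bins of 4 UMIs) and by how many of the 8 mitotic genes of the rule were detected (horizontal axis), for the 3 libraries. The selected cells lie above and to the left of the red line, 294 of the control, 297 of the bulk and 451 of the localized library, and no gap separates them from their neighbours.

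The thresholds run through a continuum. In control, the 58 cells just inside, with 8 or 9 Hist1h1b UMIs, had a median histone share of 2.37% of their UMIs, and the 74 cells just outside, with 6 or 7, had 2.31%. In bulk these values were 1.40% and 0.856%, and in localized they were 1.15% and 0.634%. At the other edge, control cells with 3 mitotic genes had 2.76% and Hist1h1b-high control cells with 4 mitotic genes had 2.86%. Top2a, the topoisomerase that untangles replicated DNA, was at 381 CPM inside and 468 CPM outside that edge in control. Selected cells differ from their neighbours only by degree at both edges. Inside the population, 19 control, 10 bulk and 53 localized cells had none of the 8 mitotic genes, and 113, 113 and 167 had 3 of them.

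The histone genes themselves come first. The files held 67 genes with a symbol that begins with Hist1h, Hist2h, Hist3h or Hist4h. They are called replication-dependent histone genes here by symbol alone. Of these, 54 lie on chromosome 13, 10 on chromosome 3, 2 on chromosome 11 and 1 on chromosome 6, per GENCODE vM21 on GRCm38. In histone-rich cells 63 of them had at least 1 UMI and 34 reached 20 CPM in some library. The level of Hist1h1b had been fixed from below by the selection, and all other genes of the same cells count as chosen with it, so the comparisons of histone-rich cells with mitotic and other cells are a description. The sequences upstream of 3 histone markers and, for contrast, of the helicase gene Mcm6 are shown because the same population expresses both kinds of gene. They are the 150 bases before the RefSeq start on GRCm38.p6, in the direction of the gene. Capitals mark matches, on either strand, to the CCAAT box (CCAAT), the TATA box (TATAAA), the linker histone H1 box (AAACACA), the octamer motif (ATTTGCAT) and the E2F motif (TTTGGCGC, TTTCCCGC, TTTCGCGC or TTTGCCGC). Neighbouring matches run together where they overlap. For Hist1h2ap no promoter row was matched.
Hist1h1b, chr13:21780626-21780775, minus strand: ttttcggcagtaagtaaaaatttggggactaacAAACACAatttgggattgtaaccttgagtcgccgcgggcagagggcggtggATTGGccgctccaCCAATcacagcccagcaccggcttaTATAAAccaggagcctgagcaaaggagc
Hist1h2ae, chr13:23571221-23571370, minus strand: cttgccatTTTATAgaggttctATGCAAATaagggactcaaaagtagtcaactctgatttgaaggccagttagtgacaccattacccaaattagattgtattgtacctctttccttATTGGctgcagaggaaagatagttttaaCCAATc
Hist1h3b, chr13:23752195-23752344, plus strand: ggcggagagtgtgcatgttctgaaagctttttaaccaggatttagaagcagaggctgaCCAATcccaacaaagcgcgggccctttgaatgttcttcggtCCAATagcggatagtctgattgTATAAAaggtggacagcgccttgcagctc
Mcm6, chr1:128359706-128359855, minus strand: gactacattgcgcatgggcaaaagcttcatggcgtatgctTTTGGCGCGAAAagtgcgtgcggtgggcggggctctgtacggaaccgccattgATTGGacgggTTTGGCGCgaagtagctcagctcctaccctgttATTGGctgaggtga

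The 4 sequences differ in the motifs they hold. Hist1h1b has the H1 box far upstream, CCAAT boxes on opposite strands and a TATA box, and Hist1h3b has CCAAT boxes and a TATA box. GENCODE starts Hist1h3b at chr13:23752267, inside the window printed for it. Its TATA box and the nearer CCAAT box lie past that start, and which start is used was not tested. The window of Hist1h2ae holds CCAAT boxes on opposite strands, with an octamer and a TATA box that read on the other strand. This window lies between Hist1h2ae and Hist1h2bg, which starts on the plus strand at chr13:23571396, so its motifs may belong to either gene. Mcm6 has E2F motifs with CCAAT boxes and no TATA box. Over the 250 bases before the start, 28 of 30 matched histone genes of at least 20 CPM held CCAAT (93.3%), against 34.5% of 27025 genes with a promoter. TATAAA was found in 14 of the 30 (46.7%, against 13% of all), the octamer in 7 (23.3%, against 1.61%), the H1 box in 6 (20%, against 6.22%) and an E2F motif in 2 (6.67%, against 1.91%). Of 15 matched genes for origin licensing and firing, 10 held CCAAT, 6 an E2F motif (40%) and 1 TATAAA. These are matches of letters and not measured binding sites, and matches in windows shared with a neighbouring gene were not set apart.

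The other shared feature is the hairpin of the message. The search was for a perfect stem of 6 bases that begins with GG, with a loop of 4 rich in T. It was found in annotated transcripts of 46 of the 67 genes and of 26 of the 34 at 20 CPM or more. The most frequent form, in 26 genes, and the form of Hist1h4h, found in 7, are given whole in capitals.
Hist1h2ap, Hist1h2ae, Hist1h3b and Hist1h1e: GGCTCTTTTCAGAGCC
Hist1h4h: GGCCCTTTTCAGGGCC

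The annotated transcript of Hist1h2ap ends 3 bases after its hairpin, that of Hist1h3b 51, that of Hist1h2ae 151 and that of Hist1h1e 1153 bases after. In 11 of the 26 genes the hairpin lay within 60 bases of the annotated end. Since the libraries were made by the 10x 3′ method, which primes on runs of A, the levels of these genes are what that method captured and not the total amount of each message. The annotated transcript of Hist1h1b held no perfect hairpin of this kind.

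Core histone H2A took most of the histone UMIs. Replication-dependent histones together made up 2.56% of all UMIs of control histone-rich cells, 1.95% in bulk and 2.04% in localized, against 1.43%, 0.908% and 1.32% in mitotic cells and 0.365%, 0.159% and 0.244% in other cells. Of the histone UMIs in histone-rich cells, H2A genes took 78.3%, 71.3% and 76.6%, and linker H1 genes 12.1%, 18.7% and 14.4%. H2B, H3 and H4 genes each took between 2.62% and 4.14%. The bulk library had the largest H1 part and the smallest H2A part, and it had the lowest histone total in all of these cell groups.

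Hist1h2ap, an H2A gene at chr13:21833026-21833507, had 16816 CPM (exact Poisson interval 16672 to 16961) in histone-rich cells of the control. The value was 11992 (11876 to 12110) in the bulk and 13672 (13576 to 13769) in the localized library. It alone gave 65.8%, 61.4% and 67.1% of their histone UMIs, and every selected cell had a UMI of it. In other cells it had 2206, 681 and 1270 CPM. Control was the highest of the libraries in both groups of cells. Stretches of 90 bases of its transcript are shared with 14 other H2A genes, and 11 of them share such a stretch of its last 200 bases, so its reads could not all be told from theirs and its level is uncertain.

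Hist1h2ae, another H2A gene at chr13:23570517-23571220, had 2532 CPM (2476 to 2588) in control cells, 1407 (1367 to 1447) in bulk cells and 1482 (1451 to 1514) in localized histone-rich cells. Control was again highest, and the electroporated libraries were close to each other. Its last 200 bases share no stretch of 90 bases with another histone gene.

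The linker genes differed among themselves. Hist1h1b, at chr13:21779883-21780625, had 1565 CPM (1521 to 1610) in control cells, 1990 (1943 to 2039) in bulk cells and 1477 (1446 to 1509) in localized histone-rich cells, with medians of 14, 20 and 16 UMIs per cell and maxima of 56, 60 and 71. Bulk was the highest. This level is bounded by the selection in each library. Hist1h1e, which the selection did not name, had 988 (954 to 1024), 1124 (1089 to 1161) and 943 (918 to 968) CPM, with bulk highest as well. Hist1h1a had 154 (141 to 169), 172 (158 to 187) and 118 (110 to 128) CPM, and here bulk and control overlapped while localized was lower. Hist1h1d had 216 (200 to 233), 194 (179 to 209) and 216 (204 to 228) CPM and Hist1h1c had 165 (151 to 180), 184 (170 to 199) and 171 (161 to 183) CPM, with overlapping intervals for each gene.

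Among the H3 genes, Hist1h3b at chr13:23752267-23752886 had 274 CPM (256 to 293) in control cells, 195 (180 to 210) in bulk cells and 189 (178 to 201) in localized histone-rich cells. Hist1h3c had 288 (269 to 307), 153 (140 to 166) and 130 (121 to 140) CPM. Both were highest in control. The H4 genes were mixed. Hist1h4h had 333, 248 and 292 CPM, and Hist1h4d had 246 (228 to 264), 281 (263 to 299) and 154 (144 to 164) CPM, lowest in localized. H2B genes were low throughout. Hist1h2bb had 135, 83.3 and 70.1 CPM and Hist1h2br 128, 56.8 and 83.4 CPM, and these were the highest in control alone. Hist1h2bc, with 97.6, 92.3 and 118 CPM, was the highest H2B gene in bulk and in localized.

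Of the 34 histone genes, 30 were at least 2-fold higher in histone-rich than in other cells of every library, against 4.1% of 5435 genes over all, a figure from which nothing is read because the selection made this contrast. The exceptions carry a different pattern. Hist3h2ba, an H2B gene on chromosome 11, had 34.0, 44.3 and 45.9 CPM in histone-rich cells and 35.0, 48.6 and 64.0 in other cells. Hist1h2bc had 97.6, 92.3 and 118 CPM against 52.9, 138 and 127 CPM. Cells with no cycle transcripts are other cells without a UMI of 12 genes. These are Mki67, Top2a, Cdk1, Ccna2, Ccnb2, Birc5, Pcna, Mcm2, Mcm5, Mcm6, Rrm2 and Tyms. Such cells had 57.3 CPM of Hist1h2bc in control, 242 in bulk and 153 in localized. This was the most in every library except control, where histone-rich cells were higher. Hist1h1c and Hist2h2aa1 fell short of 2-fold in localized cells alone, with log2 ratios to other cells of 1.68, 1.24 and 0.92 for Hist1h1c and 1.47, 1.37 and 0.69 for Hist2h2aa1. Against mitotic cells, 32 of the 34 were higher in every library but only 1, Hist1h1a, was 2-fold higher in all 3, where 0.0923% of 5420 genes were.

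**Figure D2:**
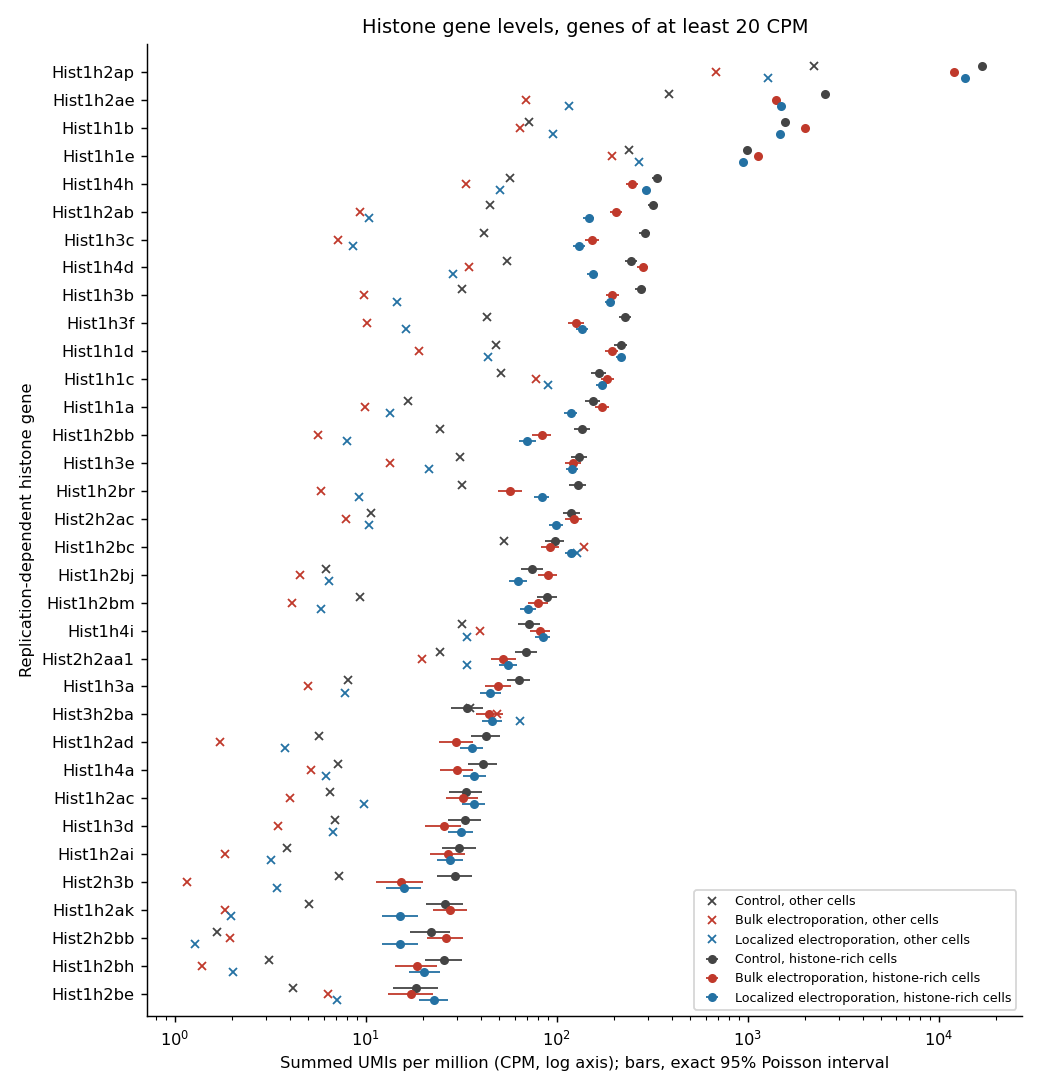
Level (CPM, log axis) of the 34 replication-dependent histone genes of at least 20 CPM, as filled points with exact 95% Poisson intervals in histone-rich cells and as crosses in other cells, coloured by library. Hist1h2ap leads with 16816, 11992 and 13672 CPM in control, bulk and localized cells, and for Hist1h2bc and Hist3h2ba the crosses lie among or above the points.

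Genes of the replication machinery were high in the same cells. Of 18 measured genes for origin licensing and firing, all 18 were higher in histone-rich than in other cells of every library and 14 were so by 2-fold. The list medians were 1.44, 1.79 and 1.56 on the log2 scale in control, bulk and localized (all log2 ratios are of CPM + 1), where the medians of all genes were 0.02, -0.03 and -0.03. Mcm6, a helicase subunit, had 159, 161 and 170 CPM in histone-rich, 80.3, 92.2 and 85.0 in mitotic and 60.7, 42.6 and 54.0 in other cells. Cdc6, which loads the helicase, had 37.6, 38.1 and 36.6 CPM against 11.4, 13.7 and 12.7 in mitotic cells. Cdc45, which activates it, had 59.4, 59.5 and 59.1 CPM against 31.2, 33.8 and 31.6. In histone-rich cells the intervals of the 3 libraries overlapped for each of these genes.

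At the replication fork, 29 of 29 genes measured in every library were higher than in other cells and 24 by 2-fold, with medians of 1.49, 1.98 and 1.5. Pcna, the sliding clamp, had 364, 390 and 417 CPM against 132, 107 and 134 in other cells. Pclaf, a clamp-associated factor, had 545, 592 and 545 CPM against 112, 80.2 and 95.9. Clspn, which relays the replication checkpoint, had 140, 181 and 159 CPM against 26.2, 19.1 and 32.6. Of 20 genes for nucleotide synthesis, 20 were higher and 8 by 2-fold in every library, led by Rrm2, a subunit of ribonucleotide reductase, with 203, 233 and 202 CPM against 53.8, 34.0 and 39.2.

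Of 14 histone chaperone and chromatin assembly genes, 14 were higher and 5 by 2-fold. Chaf1b, a subunit of the assembly factor that follows the fork, had 59.4, 72.3 and 62.0 CPM against 22, 12.6 and 15.4 in other cells. Among 11 genes for histone mRNA processing 9 were higher and 2 by 2-fold in every library. Slbp had 145, 179 and 144 CPM in histone-rich cells, 81.4, 107 and 85.4 in mitotic and 52.5, 56.6 and 55.7 in other cells. Histone variants outside the replication-dependent set differed less, with medians of 0.48, 0.58 and 0.33. H2afz, the largest of them, had 2564, 3134 and 2631 CPM against 1438, 1683 and 1589.

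The genes that set histone-rich cells apart from mitotic cells were replication and maintenance factors. Hells, a chromatin remodeller, had 245 CPM (228 to 263) in control cells, 237 (220 to 254) in bulk cells and 282 (269 to 296) in localized histone-rich cells, against 122, 117 and 126 in mitotic cells. It ranked highest over mitotic cells by the lowest ratio of the 3 libraries. Mcm3 had 182, 189 and 203 CPM against 96.1, 98.9 and 105, and Uhrf1, which carries DNA methylation through replication, had 107, 127 and 118 against 55.3, 71.9 and 61.4. In cells thinned to 6000 UMIs, Hells was detected in 74.8%, 78.8% and 76.0% of histone-rich cells (85.4%, 89.6% and 92.9% before thinning). It was found in 7.86%, 8.02% and 3.74% of thinned cells with no cycle transcripts. Their median depths before thinning were 6233, 7156 and 7636 UMIs against 10280, 11031 and 12323 in histone-rich cells. They were chosen for lacking transcripts of replication genes such as Pcna and Mcm6, so they are not an independent contrast for Hells.

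Transcripts of later phases were also present. Of 22 G2 and mitosis genes outside the selection rule that were measured in every library, 22 were higher in histone-rich than in other cells and 20 by 2-fold, while all 27 measured against mitotic cells were lower, 15 of them by 2-fold in every library, where 0.849% of all genes were. Esco2, a cohesin acetyltransferase of S phase, headed the ranking against other cells with 97.6, 114 and 88.4 CPM against 11.6, 6.02 and 8.91. Mki67 had 234, 203 and 151 CPM in histone-rich, 399, 372 and 358 in mitotic and 37.1, 21.4 and 19.0 in other cells. Top2a had 336, 308 and 209 CPM against 574, 477 and 431 in mitotic cells. Cenpf, a centromere gene, had 117, 116 and 93.1 CPM against 542, 476 and 516, and Ccnb2, a mitotic cyclin, 12.2, 18.2 and 10.4 against 70.6, 55.3 and 53.6. The localized library was the lowest of the 3 for Mki67 and Top2a in histone-rich cells, and its histone-rich cells included the largest number without any mitotic gene.

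Few genes were lower than in other cells. At 2-fold in every library there were 5 of 5435 genes, 0.092%. The lowest was Kdm5b, a histone demethylase, with 24.4, 25 and 30.3 CPM in histone-rich and 68.3, 87.3 and 84.4 CPM in other cells. Mxd4, an antagonist of Myc, had 30.5, 34.8 and 34.5 CPM against 69.9, 115 and 80.8, and Cdkn2b, an inhibitor of G1 kinases, had 27.6, 21.1 and 24.5 against 74.1, 53.2 and 50.5. The metallothionein Mt1 had 1685, 1587 and 2476 CPM against 2866, 2514 and 4254. Of 11 p53 targets measured in every library, 8 were lower in each and none by 2-fold.

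**Figure D3:**
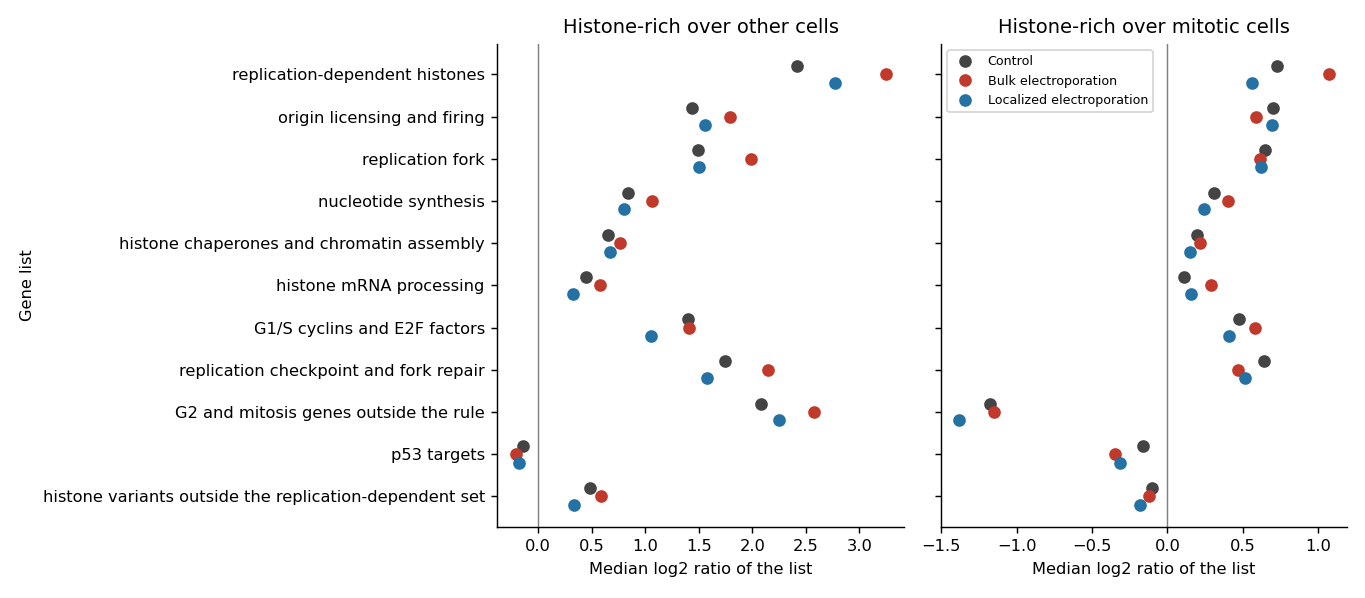
Median log2 ratio of each gene list in histone-rich over other cells (left) and over mitotic cells (right), as 1 point per library. Origin licensing has medians of 1.44, 1.79 and 1.56 over other cells and lies above 0 over mitotic cells too, and the G2 and mitosis genes lie above 0 on the left and below 0 on the right.

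The number of mitotic genes ordered the histone-rich cells among themselves. This number is part of the rule, but genes outside it can be read along it. In cells thinned to 6000 UMIs, 27 G2 and mitosis genes outside the rule had a mean of 10.6 ± 5.12 UMIs (SD over cells) in control cells with none of the 8 mitotic genes and 15.5 ± 7.62 in those with 3. In bulk the means were 9.0 ± 5.35 and 16.9 ± 8.63, and in localized 7.57 ± 3.61 and 13.9 ± 6.35. Licensing genes did not climb with it. Their means with 0 and with 3 mitotic genes were 12.6 ± 5.56 and 9.65 ± 3.95 UMIs in control, 12.1 ± 4.51 and 10.7 ± 3.77 in bulk, and 12.4 ± 3.99 and 11.8 ± 4.19 in localized. Replication fork genes were between 16.1 and 18.4 UMIs in all 12 of these sets of cells. For licensing and fork genes the spread between cells exceeded these steps. For G2 and mitosis genes the step was smaller than both SDs in control, larger than the SD of cells with no mitotic gene in bulk and localized, and close to the SD of localized cells with 3. The cells with no mitotic gene were only 16 in control and 10 in bulk after thinning. Mitotic genes were counted before thinning, and cells with 3 of them were deeper than cells with none. Median depths were 10903 against 8997 UMIs in control, 11729 against 11288.5 in bulk and 12831 against 10794 in localized. How far depth set this order was not tested. Cells share a library, and list UMIs share a depth only after thinning, so the SDs describe cells and not groups.

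**Figure D4:**
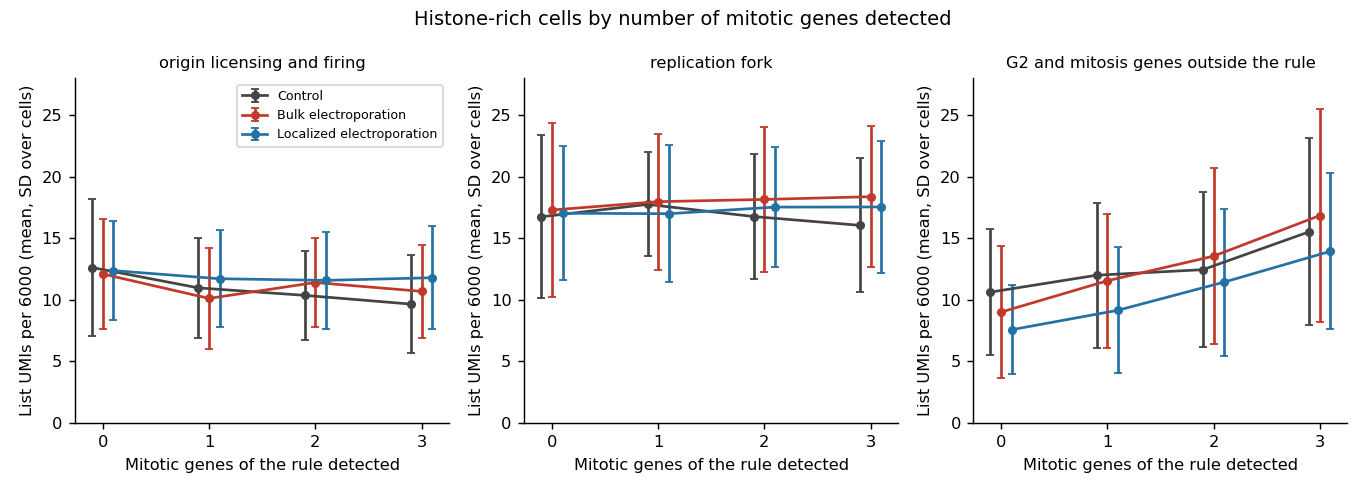
Mean UMIs per 6000 (points, bars are SDs over cells) of 3 gene lists in histone-rich cells with 0, 1, 2 or 3 of the 8 mitotic genes detected, by library. The mean of the G2 and mitosis genes climbs from 10.6 to 15.5 (control), from 9.0 to 16.9 (bulk) and from 7.57 to 13.9 (localized), while the fork list stays between 16.1 and 18.4 UMIs.

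Within each library, Hist1h1b and the other replication-dependent histones varied together across the histone-rich cells, with a Spearman coefficient of 0.42 over 282 control cells, 0.58 over 283 bulk cells and 0.55 over 445 localized cells at 6000 UMIs. The same histones were related to the G2 and mitosis genes with 0.38, 0.40 and 0.42, and to the licensing genes with -0.03, 0.08 and 0.10. Cells of 1 library share its preparation and the fixed total of UMIs, so these coefficients are descriptions only.

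The libraries were compared next within the histone-rich cells. With 1 library per group, a difference between libraries cannot be told apart from an effect of the treatment. The selection used Hist1h1b and the 8 mitotic genes and nothing else by name. In histone-rich cells of bulk over control, 20 of 5835 genes (0.343%) were higher by 2-fold or more and 25 (0.428%) were lower by as much. For localized over control there were 45 of 5897 (0.763%) higher and 56 (0.95%) lower, and for bulk over localized 43 of 5946 (0.723%) higher and 34 (0.572%) lower. Both electroporated libraries are set against the same control library. None of the 34 histone genes was 2-fold higher in either comparison with control, 1 was 2-fold lower in bulk (Hist1h2br) and 2 in localized (Hist1h2ab and Hist1h3c).

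Smaller differences of histones ran mostly downward. The selection bears on them, since the cells were chosen by a count of Hist1h1b, which varied with the other histones. Median depths of control, bulk and localized histone-rich cells were 10280, 11031 and 12323 UMIs, and a deeper cell reaches 8 Hist1h1b UMIs more easily. Those with 8 or 9 Hist1h1b UMIs had median histone shares of 2.37%, 1.40% and 1.15%. How far the selection set these differences was not tested. In bulk over control histone-rich cells 11 of the 34 were higher and 23 lower, with a median log2 ratio of -0.18, and in localized over control 6 were higher and 28 lower, with a median of -0.28, while the medians of all genes were 0.05 and 0.07. In the summed UMIs of other cells the bulk library was further below control, with a median of -0.75. In these sums 14 of the 34 genes were 2-fold lower, against 43 of 5698 genes over all. There Hist1h2ae had 388 CPM in control, 68.8 in bulk and 115 in localized. The median of single cells did not show this drop. Histone shares of single other cells had medians of 0.106% (control), 0.111% (bulk) and 0.165% (localized), and maxima of 7.71%, 3.88% and 3.99%. How far a minority of histone-high cells set the sums was not tested. The free RNA of each library, read from barcodes of 10 to 100 UMIs, held 524, 389 and 481 CPM of Hist1h2ae and 0.633%, 0.585% and 0.661% of histone UMIs in all. Taking away 5% of the UMIs of histone-rich cells with that profile left the medians at -0.17 and -0.28.

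Replication genes were close to control. The licensing list had a median of 0.02 for bulk and 0.12 for localized cells over the control, the fork list 0.12 and 0.08, and nucleotide synthesis 0.12 and 0.09, and no gene of these 3 lists was 2-fold apart in either comparison. The E cyclins, which start S phase with Cdk2, were an exception within the G1/S list. Ccne2 had 30.2 CPM (24.4 to 36.9) in control cells, 72.6 (63.8 to 82.3) in bulk cells and 56.7 (50.7 to 63.2) in localized histone-rich cells, with none of the intervals overlapping. It was lower in mitotic cells, with 8.17, 19.2 and 18.3 CPM, and lower still in other cells, with 4.29, 6.77 and 10.8 CPM. In thinned cells it was detected in 14.5%, 36.4% and 28.1% of histone-rich cells (25.5%, 51.9% and 47.7% before thinning). Among thinned cells with no cycle transcripts it was found in 0 of 280 control, 0 of 262 bulk and 0 of 454 localized cells. This allows shares of up to 1.07%, 1.15% and 0.661% of cells with a UMI at this depth and sets no limit on cells that express it. These cells were chosen for lacking cycle transcripts, so nothing is read from the contrast. Ccne1 had 38.8 (32.2 to 46.4), 65.8 (57.4 to 75) and 38.2 (33.3 to 43.6) CPM, higher in bulk than in both others.

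Bulk histone-rich cells carried interferon-response transcripts. Cxcl10, a chemokine gene induced by interferons, had 1.60 CPM in control (5 UMIs), 265 CPM (248 to 283, 890 UMIs) in bulk and 10.4 CPM (59 UMIs) in localized histone-rich cells. Isg15, a ubiquitin-like modifier, had 0 UMIs in control, 263 in bulk (78.3 CPM) and 9 in localized (1.58 CPM). Against a floor of 3 UMIs in the summed control cells, it was at least 81.3-fold higher in bulk. Of 19 interferon-response genes, 5 reached 20 CPM in bulk histone-rich cells and none did in control. All 5 were 2-fold higher in bulk over control. They passed the minimum by their bulk level alone, which favours such a result, so nothing is read from this count. Without a minimum, the median log2 ratio of the list was 1.69. Levels were lower than elsewhere in the bulk library, where mitotic cells had 663 and other cells 454 CPM of Cxcl10.

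A UMI of any of Cxcl10, Isg15, Ifit1, Rsad2 and Oasl1 was found, after thinning, in 35.7% of bulk histone-rich cells (30.1 to 41.6%), 50.2% of bulk mitotic cells (48.3 to 52.2%) and 42.0% of bulk other cells (39.9 to 44.2%). Before thinning these were 44.4%, 62.3% and 46.0%. In control and localized cells of all 3 kinds the thinned share lay between 1.42% and 2.03%. Among bulk cells of 8000 to 14000 UMIs, a window chosen after the values were seen, the shares were 34.7% (27.7 to 42.2%), 40.4% (37.3 to 43.6%) and 41.3% (38.6 to 44.1%), and the interval of histone-rich cells then overlapped both others. The free RNA of the bulk library held 670 CPM of these 5 genes, and bulk histone-rich cells 429, mitotic cells 1212 and other cells 918. How much of the signal in histone-rich cells came from free RNA was not tested. Bulk histone-rich cells with such a UMI had a median of 112 histone UMIs per 6000 (quartiles 84 and 148) and those without had 126.5 (94.5 and 157), so the distributions overlapped widely.

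Genes of the integrated stress response, which Atf4 switches on when translation is restrained, were high in control and lower in both electroporated libraries. All 18 measured genes of the list were lower in bulk histone-rich cells, 6 by 2-fold, with a median of -0.62. All 18 were lower in localized, 13 by 2-fold, with a median of -1.38. Over all genes, 0.428% were 2-fold lower in bulk and 0.95% in localized. Ddit3, a stress-induced transcription factor, had 156 CPM (143 to 171) in control cells, 35.4 (29.3 to 42.4) in bulk cells and 14.4 (11.5 to 17.9) in localized histone-rich cells. Gdf15, a secreted stress factor, had 141, 22.3 and 10.9 CPM, and Atf4 itself 243, 134 and 94.2. Mthfd2, a mitochondrial folate enzyme, had 235, 116 and 55.8 CPM. The order control, bulk, localized held for all of these. Chac1, a glutathione-degrading enzyme, had 56.2 CPM (175 UMIs) in control and 1 UMI in localized histone-rich cells, a ratio of 319 with a counting interval of 56.5 to 12674. The same list had medians of -0.34 and -1.60 in mitotic and -0.59 and -1.24 in other cells, so the difference was not shown to be particular to histone-rich cells.

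Cholesterol synthesis genes were lower in bulk. All 19 were lower in bulk over control histone-rich cells, with 4 by 2-fold (0.428% of all genes were) and a median of -0.66. In localized, 15 of 19 were lower with a median of -0.15. Msmo1, an enzyme of the pathway, had 245, 115 and 196 CPM in control, bulk and localized histone-rich cells. Snhg1, a host of small nucleolar RNAs, had 346 CPM in control, 122 in bulk and 141 in localized histone-rich cells.

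p53 targets differed between the electroporated libraries. In histone-rich cells 13 of 14 measured targets were higher in bulk than in localized, with a median of 0.66. By 2-fold there were 5, against 0.723% of all genes. Trp53inp1, a p53-induced stress gene, had 24.7 (19.5 to 30.9), 54.5 (46.9 to 63.0) and 22.2 (18.5 to 26.4) CPM in control, bulk and localized. Ccng1 had 88.9, 106 and 47.9 CPM. Set against control, the median was 0.20 for bulk and -0.29 for localized cells.

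Single genes of glial, Notch and early response were highest in localized histone-rich cells. No Notch list was set, and members of the astrocyte and immediate early lists went both ways. Of 6 measured astrocyte markers 3 were higher and 3 lower in localized over control, with a median of 0.11 against 0.07 for all genes. Of 11 immediate early genes 6 were higher, 3 of them by 2-fold, and 5 were lower, 1 of them by 2-fold, with a median of 0.28. Over all genes, 0.763% were 2-fold higher and 0.95% 2-fold lower. Hes5, a Notch target of progenitors, had 50.7 CPM (43.1 to 59.3) in control cells, 41.4 (34.8 to 48.8) in bulk cells and 166 (155 to 177) in localized. In mitotic cells it had 104, 31.6 and 183 CPM and in other cells 82.0, 26.7 and 214 CPM. Bulk was therefore 0.29 below control in log2 in histone-rich cells, and 1.68 and 1.58 below it in mitotic and other cells, a gap that could not be tested with 1 library per group. Apoe, a lipid carrier of astrocytes and progenitors, had 91.2, 76.5 and 249 CPM in histone-rich cells against 176, 261 and 773 in other cells. Fos had 31.5, 24.7 and 81.0 CPM, the antioxidant enzyme Hmox1 54.9, 62.5 and 135, and Id1, a target of bone morphogenetic proteins, 125, 92.3 and 267. Localized was the highest library for each of these 5 genes, with intervals clear of both others.

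**Figure D5:**
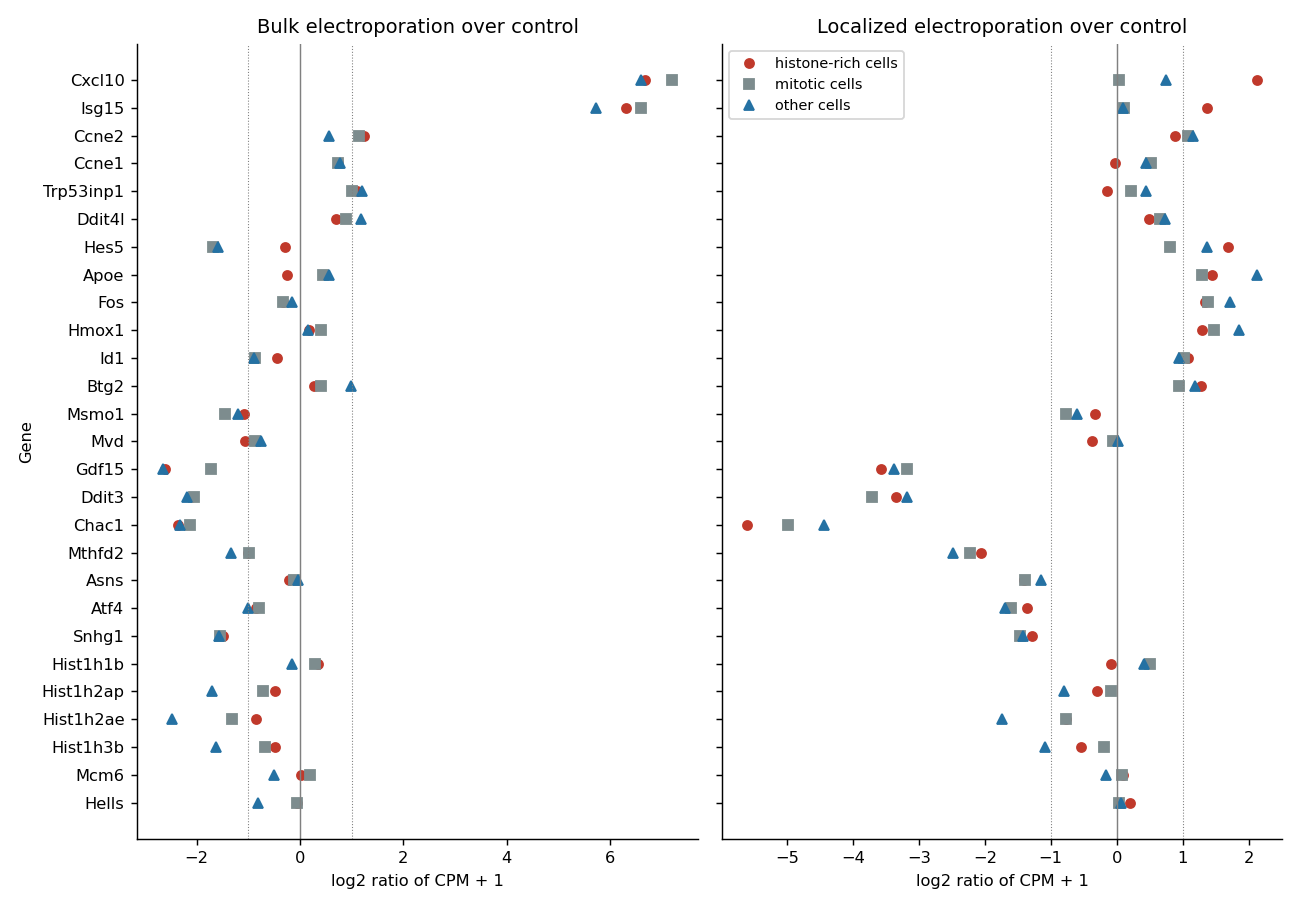
Log2 ratio of CPM + 1 over control for named genes in histone-rich (circles), mitotic (squares) and other cells (triangles), for bulk (left) and localized (right) electroporation, with dotted lines at 2-fold. The symbols of a gene mostly lie close together, while Hes5 in bulk (-0.29 in histone-rich, -1.68 in mitotic and -1.58 in other cells) and the histone genes are spread out.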

How the data were processed

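The deposited matrices held UMI counts as whole numbers for 32285 genes in every barcode, empty ones included, per the file headers, which name Cell Ranger 4. Cell Ranger 6, Seurat 4.0.4 and the builds GRCm38 and mm10 are named per the submitters' processing notes, and the annotation release is not given in the sources used here. Totals were 74429007 control, 85743257 bulk and 83803032 localized UMIs. Cells were barcodes of at least 3000 UMIs, 500 genes and at most 20% mitochondrial UMIs. Doublets were not called, and cells of very many UMIs were left out only in an alternative. UMIs were summed per library and kind of cell and scaled to CPM, and ratios used a pseudocount of 1 CPM and genes of at least 20 CPM in either sum. With 1 library per group no count model was run. The counting of genes past 2-fold was checked on simulated data, which gives no error rate for the counts. Intervals are exact Poisson and Clopper-Pearson at 95% and cover counting error only.

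The cells, gene lists and rules were chosen with earlier results of these data known, and no list is independent evidence. Named genes were the markers and rule genes, histones of at least 50 CPM, the 12 highest and lowest per comparison at 50 CPM or more (predicted, Riken and ribosomal protein genes left out), and at most 4 genes of each list. Pcna, Cdc6, Sox2, Nes, Olig2, Pdgfra, Dcx, Map2, Gfap, Gjb6, Mbp, Cnp, Aldoc and Aldh1l1, where outside that rule, were chosen for their roles after values were seen. Of the genes this rule takes, 1 is not reported here. Promoters and coordinates come from RefSeq GRCm38.p6 and GENCODE vM21. Alternatives changed the thresholds, depth, scaling, CPM minimum and pseudocount. Python 3.11.15, numpy 2.4.6, scipy 1.17.1 and pandas 2.3.3 were used.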

Additional observations from a re-analysis of the deposited data

How the results depend on the processing

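No paired analysis was possible because each group had 1 library. The shares of histone-rich cells in control, bulk and localized followed the rule. They were 6.75%, 6.89% and 10.1% at a minimum of 5 Hist1h1b UMIs, 3.20%, 4.36% and 5.10% at 12, 1.43%, 1.19% and 2.24% with fewer than 2 mitotic genes, and 9.19%, 12.9% and 11.9% in thinned cells. At a minimum of 6000 UMIs they were 5.60%, 5.75% and 7.67%. Among cells of 8000 to 14000 UMIs, chosen after the values were seen, they were 6.86%, 7.26% and 10.0%, and 10.4%, 13% and 13.1% when thinned as well.

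Counts of genes past 2-fold are given as higher and lower for bulk over control, localized over control and bulk over localized. With fewer than 2 mitotic genes, which leaves fewer cells, they were 120 and 122, 170 and 107, and 94 and 138. At a minimum of 50 CPM they were 5 and 11, 17 and 30, and 16 and 18. Without a minimum they were 350 and 171, 470 and 178, and 236 and 262. A pseudocount of 5 CPM left 9 higher genes for bulk over control, 28 for localized over control, and 28 higher and 21 lower for bulk over localized.

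Among 792 recomputed ratios of 72 gene comparisons, none that was 2-fold or more in the main analysis changed sign, and 65 moved beyond counting error. Of 583 recomputed list medians 9 were counted as changed in sign. Sign changes of gene ratios under 2-fold and of very small list medians were not counted. With fewer than 2 mitotic genes, medians of bulk over control became -0.00632 for the fork, -0.0272 for G1/S, -0.0656 for G2 and mitosis and -0.827 for the rule genes, the last also -0.00486 at 6000 UMIs and -0.0766 at 50 CPM. The G1/S median of localized over control became -0.0659 in thinned cells and -0.0667 at 50 CPM, and that of bulk over localized -0.0198 in thinned cells. The cause was not tested.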

Other observations

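Further lists in histone-rich cells are given as values. Of 10 measured NRF2 targets, which answer oxidative stress, 10 were higher in bulk over control with a median of 0.25. In localized over control 9 were higher, 2 by 2-fold (0.763% of all genes were), with a median of 0.42. Immediate early genes had 8 of 10 lower in bulk over control (median -0.55). Acta2, a smooth muscle actin gene, had 199 CPM in control, 254 in bulk and 97.5 in localized histone-rich cells. Mitotic cells had 245, 293 and 114 CPM and other cells 258, 338 and 116 CPM of it, the same order of libraries. Asns, which makes asparagine, had 151, 131 and 56.3 CPM in histone-rich cells, so that bulk lay near control and localized well below both.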
